A study of Canis lupus familiaris with 33 samples.

Results

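Aminoacyl-tRNA synthetases were examined in lymph node biopsies of dogs with diffuse large B-cell lymphoma (DLBCL) and in lymph nodes of dogs without lymphoma. The genes were chosen with earlier results of these data known, by a rule on names that uses no measured values. The synthetase form of a symbol is an amino acid letter followed by ARS, with or without a final digit. A probeset was taken when the annotation gave it a single symbol of that form or EPRS1. This gave 99 of the 43035 probesets on the array and 32 of the 15115 genes with a symbol. Of these, 17 genes with 67 probesets encode cytosolic enzymes and 15 genes with 32 probesets encode mitochondrial enzymes, which carry a final 2 in their symbol. GARS1 and MARS2 were not analysed here.

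Aminoacyl-tRNA synthetases join each amino acid to its tRNA and so set the reading of the genetic code. Vertebrate cells keep one set of enzymes for translation in the cytosol and another, encoded by separate nuclear genes, for the few proteins made inside mitochondria, and KARS1 serves both compartments from one gene. Several cytosolic synthetases sit in a multisynthetase complex held together by scaffold proteins, and the transcription of many cytosolic synthetase genes rises when amino acids are short or when MYC is active.

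The series held 33 Affymetrix Canine Genome 2.0 arrays, each of RNA from lymph node tissue, which for DLBCL was labelled as a biopsy. Naïve DLBCL, from dogs with no previous chemotherapy, gave 16 arrays, and relapsed DLBCL gave 7 arrays. The labels name CHOP, a combination of cyclophosphamide, doxorubicin, vincristine and a glucocorticoid, for 4 of the 7 relapsed samples and other regimens for the rest, with 13 to 672 days since the last treatment. Healthy nodes gave 10 arrays, from dogs put to sleep for conditions other than lymphoma. The DLBCL dogs were of many breeds and were 2.7 to 13.3 years old, while age and breed of the healthy dogs were not given. By their case labels the 23 DLBCL arrays came from 22 dogs, since samples 11 and 12 were one dog before and after treatment, and the 10 healthy arrays came from 7 dogs, since 4 arrays were of healthy dog 1. Arrays of one dog were averaged before DLBCL was compared with healthy nodes, so that dogs and not arrays were counted.

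The values were log2 RMA levels, which ran from 2.2 to 15.49, and the median of an array lay between 6.85 and 6.97. A difference of 1 on this scale is a doubling, and levels of different probesets cannot be compared with each other. Where a gene had several probesets, the one of highest mean level over all arrays stood for it. None of the 32 probesets so chosen had a mean under 4.56, the highest mean of the 17 tag control probesets, while 5 of the 67 dimmer ones did. The nodes differed in more than these genes. All 9 measured mitosis genes were higher in DLBCL, and 8 of 10 T-cell genes were lower. The mean of the T-cell genes was 7.75 to 10.11 in DLBCL and 10.38 to 11.37 in healthy nodes. In a bulk node, fewer cells of a type and less RNA per cell cannot be told apart. Sample 5 stood apart by a B-cell gene mean of 8.57, where the other DLBCL dogs reached 11.78, and sample 18 by the highest stromal gene mean, 12.15, and the lowest mitosis gene mean of the DLBCL dogs, 9.60. The RNA integrity number (RIN, from 1 for degraded to 10 for intact RNA) was 8.9 to 10 in DLBCL and 5.8 to 9.15 in healthy nodes, with only healthy dog 1 inside the range of the tumours.

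Synthetases of both compartments were more often higher than lower in DLBCL. In 22 DLBCL against 7 healthy dogs, 8 of 17 cytosolic genes were higher and 1 was lower, and 7 of 15 mitochondrial genes were higher and 2 were lower (limma, Benjamini-Hochberg adjusted p under 0.05). Over all genes, 19.9% were called higher and 14.9% lower. The share of synthetases called higher, 46.9% of the 32, was above that background, and the share called lower, 9.38%, was below it. The median log2 difference was 0.20 for cytosolic and 0.19 for mitochondrial genes, beside 0.06 over all genes. On this choice of 1 probeset for each gene, the classes had like counts and like medians. With all probesets counted, 15 of 17 cytosolic and 9 of 15 mitochondrial genes had 1 or more called higher. Cytosolic genes also had more probesets, 67 against 32, which gave them more chances of a call. The share of all genes with 1 or more probesets called higher was not counted, so these counts have no background. Read from the brightest probesets, TARS3 was the only member with a fold of more than 2, while dimmer probesets of IARS1 (1.19), CARS2 (1.05) and EPRS1 (1.01) also differed by more than 1 on the log2 scale. With RIN as a covariate no synthetase was called, and over all genes 1.86% were called in either direction. In that fit 9 of the 32 (28.1%) had an unadjusted limma p under 0.05, against 16.3% of all genes.

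**Figure D1:**
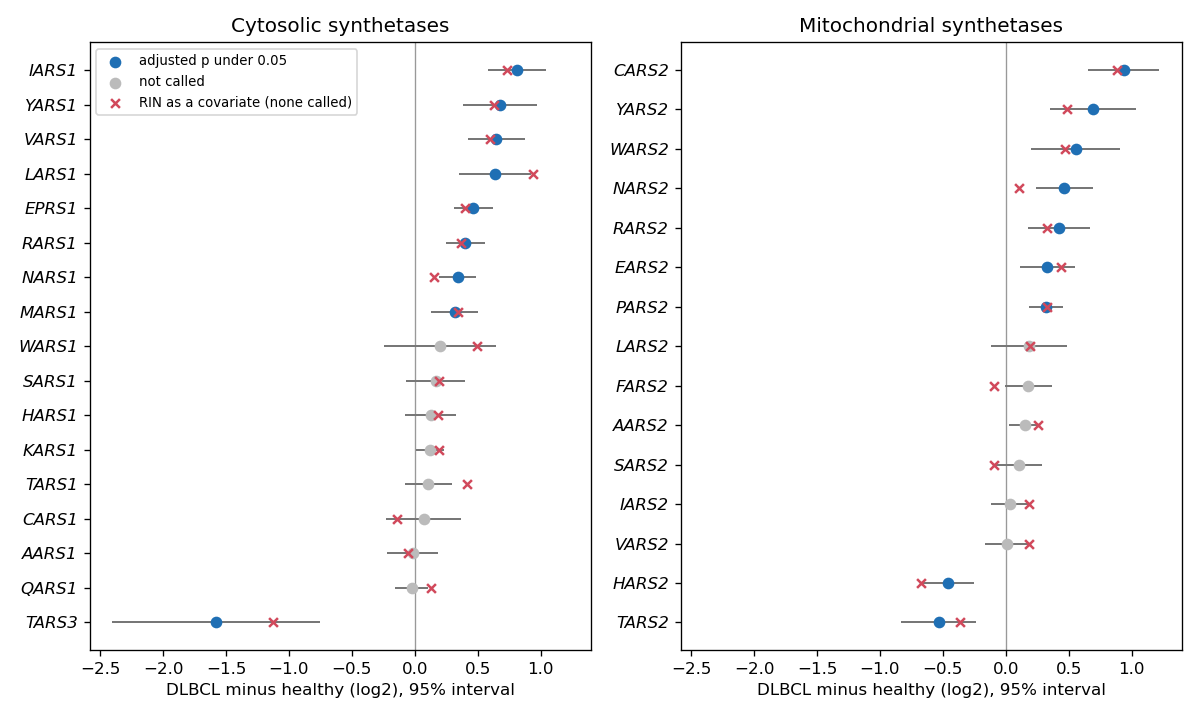
Log2 difference of DLBCL (22 dogs) minus healthy nodes (7 dogs) for each of the 17 cytosolic and 15 mitochondrial synthetase genes, with 95% intervals; blue points passed the adjusted p threshold of 0.05, grey points did not, and red crosses give the difference with RIN as a covariate. Most points lie to the right of 0 in both panels, and TARS3 lies far to the left at -1.58.

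Among the members of the multisynthetase complex, 5 of 7 (71.4%) were higher (IARS1, LARS1, EPRS1, RARS1 and MARS1), with a median difference of 0.40. Of the 10 other cytosolic genes 3 were higher (30%) and 1 lower (10%), with a median of 0.15. Over all genes 19.9% were higher and 14.9% lower. The difference between members of the complex and other cytosolic genes was not tested. IARS1, which charges isoleucine tRNA, measured 11.03, 11.88 and 12.10 in DLBCL dogs (lowest, median and highest) and 10.88, 11.01 and 11.06 in healthy dogs. Of the 22 DLBCL dogs, 21 lay above every healthy dog, and sample 18 was the exception. The difference was 0.81 (SE 0.11, limma adjusted p = 2.8e-06), a 1.76-fold higher level, and the other 4 IARS1 probesets were also called higher.

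LARS1, which charges leucine tRNA, measured 11.25, 11.91 and 12.29 in DLBCL and 10.73, 11.23 and 11.74 in healthy dogs. The ranges overlapped, with 17 DLBCL dogs above all healthy ones, and the difference was 0.64 (SE 0.14, limma adjusted p = 0.00076). EPRS1, one protein that charges both glutamate and proline tRNA, measured 11.72, 12.19 and 12.43 in DLBCL and 11.55, 11.68 and 11.88 in healthy dogs. It lay above all healthy dogs in 20 DLBCL dogs, with a difference of 0.47 (SE 0.07, limma adjusted p = 2.2e-05).

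RARS1, the arginine enzyme, and MARS1, the methionine enzyme, each lay above all healthy dogs in 18 DLBCL dogs. Their differences were 0.40 for RARS1 (SE 0.08, limma adjusted p = 0.00014) and 0.32 for MARS1 (SE 0.09, limma adjusted p = 0.0081). The remaining complex members did not pass the test when read from their brightest probeset. KARS1, the lysine enzyme, differed by 0.12 (limma adjusted p = 0.087) and QARS1, the glutamine enzyme, by -0.02 (limma adjusted p = 0.80).

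Outside the complex, VARS1, YARS1 and NARS1 were higher in DLBCL. VARS1, which charges valine tRNA, measured 7.73, 8.29 and 8.85 in DLBCL and 7.51, 7.68 and 7.94 in healthy dogs, and 21 of 22 DLBCL dogs lay above every healthy dog. The difference was 0.65 (SE 0.11, limma adjusted p = 5.0e-05). YARS1, the tyrosine enzyme, measured 9.40, 10.38 and 11.09 in DLBCL and 9.54, 9.72 and 9.89 in healthy dogs. Again 21 DLBCL dogs lay above all healthy ones while sample 18 lay below them, and the difference was 0.68 (SE 0.14, limma adjusted p = 0.00059). NARS1, the asparagine enzyme, showed the same pattern of 21 dogs above and sample 18 below, with a difference of 0.34 (SE 0.07, limma adjusted p = 0.00053).

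TARS3, a second threonyl-tRNA synthetase of the cytosol, was lower in DLBCL and the most variable member. It measured 5.02, 7.33 and 9.06 in DLBCL and 8.43, 8.62 and 8.90 in healthy dogs, with an SD of 1.10 and 0.16. In 20 DLBCL dogs the level lay below every healthy dog, and in sample 20 it lay above all of them. Samples 15 and 13 were lowest, at 5.02 and 5.29. The difference was -1.58 (SE 0.40, limma adjusted p = 0.0033), so that the level in healthy nodes was 2.98-fold that in DLBCL.

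WARS1, the tryptophan enzyme and a known interferon-induced gene, spread widely in DLBCL without a shift of the mean that passed the test. It measured 9.43, 10.28 and 11.76 in DLBCL and 10.09, 10.16 and 10.24 in healthy dogs, with an SD of 0.59 against 0.06. Of the DLBCL dogs 11 lay above and 7 below every healthy dog, and the difference was 0.20 (95% interval -0.24 to 0.65, limma adjusted p = 0.51). The other cytosolic genes that did not pass the test were SARS1 for serine (0.16), HARS1 for histidine (0.13), TARS1 for threonine (0.11), CARS1 for cysteine (0.07) and AARS1 for alanine (-0.02). AARS1 lay above all healthy dogs in 7 DLBCL dogs and below all of them in 9, and CARS1 in 9 and 8. In SARS1 and in HARS1 12 DLBCL dogs lay above and 2 below, and in TARS1 3 lay above and none below.

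**Figure D2:**
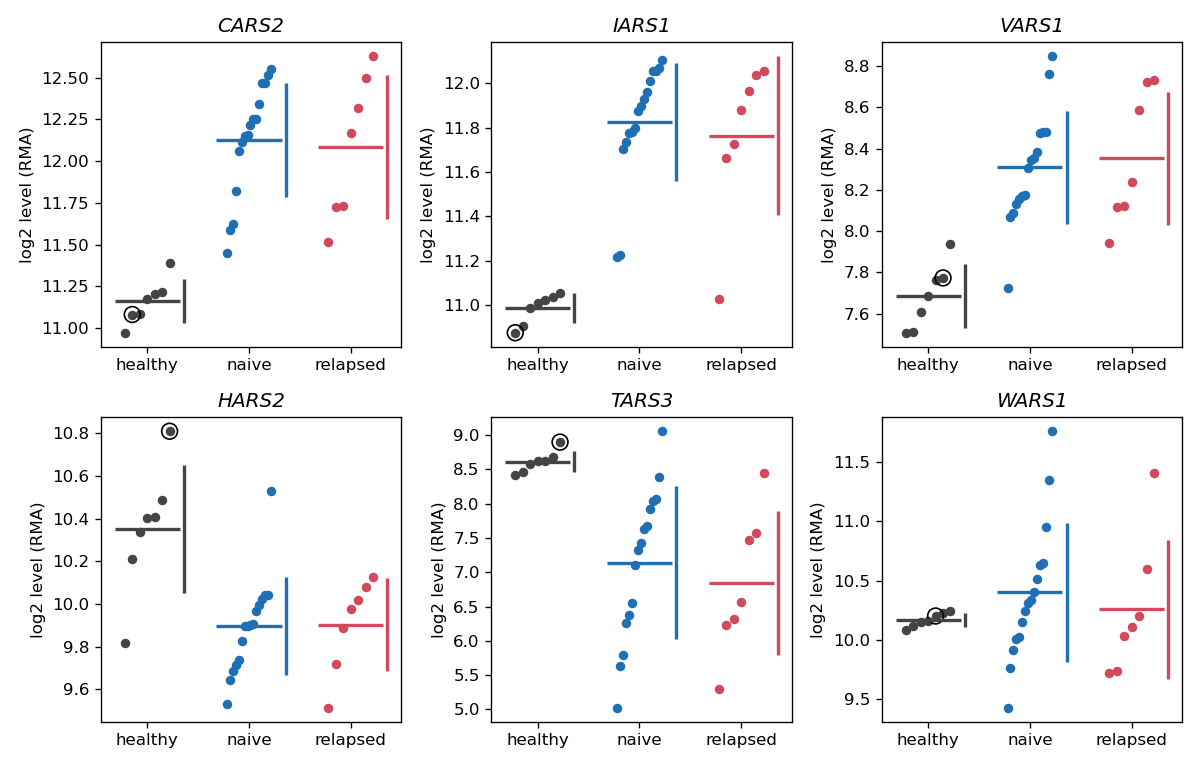
Log2 RMA level of CARS2, IARS1, VARS1, HARS2, TARS3 and WARS1 in each healthy dog and each naïve and relapsed DLBCL sample; lines are group means, bars ± SD, and the circled point is healthy dog 1. CARS2 in all tumours lies above the healthy dogs, whose highest value was 11.39, TARS3 falls to 5.02 in single tumours, and WARS1 lies on both sides of the narrow healthy range.

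Of the mitochondrial enzymes, CARS2, the cysteine enzyme, was higher in every DLBCL dog. It measured 11.45, 12.16 and 12.63 in DLBCL and 10.97, 11.18 and 11.39 in healthy dogs, so the groups did not overlap. Over all genes, 0.549% had every DLBCL dog above every healthy dog. The difference was 0.94 (SE 0.14, limma adjusted p = 6.8e-06), a 1.91-fold higher level, and was 0.88 with RIN as a covariate (limma adjusted p = 0.13). A second CARS2 probeset differed by 1.05, with 21 DLBCL dogs above all healthy ones.

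YARS2, the mitochondrial tyrosine enzyme, measured 6.11, 7.08 and 7.70 in DLBCL and 5.92, 6.22 and 6.57 in healthy dogs, with 17 DLBCL dogs above all healthy ones and a difference of 0.69 (SE 0.17, limma adjusted p = 0.0020). WARS2, the tryptophan enzyme, measured 7.33, 8.30 and 9.23 in DLBCL and 7.61, 7.72 and 8.19 in healthy dogs, with 15 above and a difference of 0.55 (SE 0.17, limma adjusted p = 0.014). In both genes the lowest tumours overlapped the healthy dogs.

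NARS2, the asparagine enzyme, measured 7.06, 7.23 and 7.85 in DLBCL and 6.37, 6.79 and 7.55 in healthy dogs. The highest healthy value belonged to healthy dog 1, the healthy dog of highest RIN, and only 5 DLBCL dogs lay above it. The difference was 0.47 (SE 0.11, limma adjusted p = 0.0018) and was 0.10 with RIN as a covariate. A second NARS2 probeset, at a mean of 6.57, differed by 0.63 (limma adjusted p = 4.5e-05), with all 22 DLBCL dogs above every healthy dog. With RIN as a covariate that probeset differed by 0.51 (limma adjusted p = 0.29). The dimmest NARS2 probesets, at means of 4.14 and 3.16, differed by 0.07 and 0.16 and were not called.

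Smaller rises were found for RARS2, the arginine enzyme (0.42, limma adjusted p = 0.0072), EARS2, the glutamate enzyme (0.33, limma adjusted p = 0.019), and PARS2, the proline enzyme (0.32, limma adjusted p = 0.00038). RARS2 and PARS2 each lay above all healthy dogs in 19 DLBCL dogs and EARS2 in 15. The EARS2 call was lost without healthy dog 1 (0.29, limma adjusted p = 0.054) and without healthy dog 4 (0.29, limma adjusted p = 0.055).

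HARS2 and TARS2 were the mitochondrial genes lower in DLBCL. HARS2, the histidine enzyme, measured 9.51, 9.90 and 10.53 in DLBCL and 9.82, 10.40 and 10.81 in healthy dogs, with a difference of -0.46 (SE 0.10, limma adjusted p = 0.0010). TARS2, the threonine enzyme, measured 10.13, 11.24 and 11.80 in DLBCL and 11.29, 11.78 and 12.03 in healthy dogs, with a difference of -0.53 (SE 0.15, limma adjusted p = 0.0055). No DLBCL dog lay above the healthy range in either gene, while 7 lay below it in HARS2 and 12 in TARS2. The dimmer TARS2 probesets were not called, at -0.22 (limma adjusted p = 0.077) and -0.16 (limma adjusted p = 0.26). With RIN as a covariate they differed by -0.21 and 0.08.

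LARS2 for leucine (0.19), FARS2 for phenylalanine (0.18), AARS2 for alanine (0.15), SARS2 for serine (0.10), IARS2 for isoleucine (0.03) and VARS2 for valine (0.01) did not pass the test. AARS2 came nearest, with a limma adjusted p of 0.054.

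For 12 amino acids both the cytosolic and the mitochondrial enzyme were measured, and the difference between both responses was tested in each dog as cytosolic minus mitochondrial level. The p-values were adjusted over these 12 differences together with all 43035 probesets. In 5 pairs the change was more upward in the cytosolic enzyme: isoleucine by 0.78 (SE 0.11, limma adjusted p = 2.1e-06), threonine by 0.64 (SE 0.15, limma adjusted p = 0.0013), valine by 0.63 (SE 0.11, limma adjusted p = 7.1e-05), histidine by 0.59 (SE 0.17, limma adjusted p = 0.0079) and leucine by 0.45 (SE 0.17, limma adjusted p = 0.035). The isoleucine and valine pairs joined a higher cytosolic gene to a mitochondrial gene near 0, and the threonine and histidine pairs joined a cytosolic gene not called to a lower mitochondrial one. All pairs were read from the brightest probesets, and of the TARS2 probesets only the brightest was called. Cysteine ran the other way, by -0.87 (SE 0.20, limma adjusted p = 0.0015), since CARS2 was higher and CARS1 differed by 0.07. The leucine call was lost without healthy dog 1, 2, 5 or 6, with differences of 0.43, 0.37, 0.46 and 0.43 (limma adjusted p of 0.070, 0.11, 0.051 and 0.065).

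The pairs for alanine (-0.17), asparagine (-0.12), arginine (-0.02), serine (0.06), tryptophan (-0.35) and tyrosine (-0.02) did not pass the test. HARS1 and HARS2 were the only neighbouring members in the canine RefSeq gene table, and HARS2 was lower while HARS1 was not called. No pair was called with RIN as a covariate.

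Synthetases fall into a pair of unrelated enzyme families, class I and class II, which differ in the fold of the catalytic domain. Of 17 class I genes 11 were higher and none was lower (median 0.40), and of 14 class II genes 3 were higher and 3 were lower (median 0.12). For class II these shares, 21.4% each way, were near the 19.9% higher and 14.9% lower of all genes, while 64.7% of class I were higher. EPRS1, which holds a domain of each class, was left out of this count. The class I genes called were in both compartments, while the 3 lower genes, TARS3, TARS2 and HARS2, were all of class II. These counts are a description, and the difference between the classes was not tested.

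The dimmer probesets of a gene often gave a larger rise than its brightest one. Over the 99 member probesets, 54 were higher and 3 lower (54.5% and 3.03%), beside 19% higher and 13.6% lower over all 43035 probesets. Of the 67 cytosolic probesets 38 were higher and 1 lower, and of the 32 mitochondrial ones 16 were higher and 2 lower. In 21 of the 23 genes with several probesets the largest rise was in a dimmer probeset. These 23 genes had 67 dimmer probesets, so a dimmer one had more chances to be the largest. How often this holds over all genes was not counted.

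In 9 genes the brightest probeset was not called while another was higher: AARS1, CARS1, HARS1, KARS1, QARS1, SARS1, TARS1, IARS2 and LARS2. The share of all genes with this pattern was not counted. The brightest KARS1 probeset, at a mean of 14.01, differed by 0.12, and its others, at 13.29, 11.46 and 11.35, by 0.26, 0.73 and 0.85. The QARS1 probesets, from the brightest at a mean of 13.04 to the dimmest at 8.82, differed by -0.02, 0.11, -0.09, 0.35 and 0.86, so the order of level and rise was not strict. IARS2 ran from 0.03 at a mean of 11.44 to 0.64 at 7.78. A mean over a gene's probesets called 13 cytosolic genes higher in place of 8. It also called IARS2 and LARS2 of the mitochondrial genes, and the share of all genes called in that fit is not given here. No member probeset was called with RIN as a covariate, and which transcripts or exons the probesets read is not given in the sources used here.

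**Figure D3:**
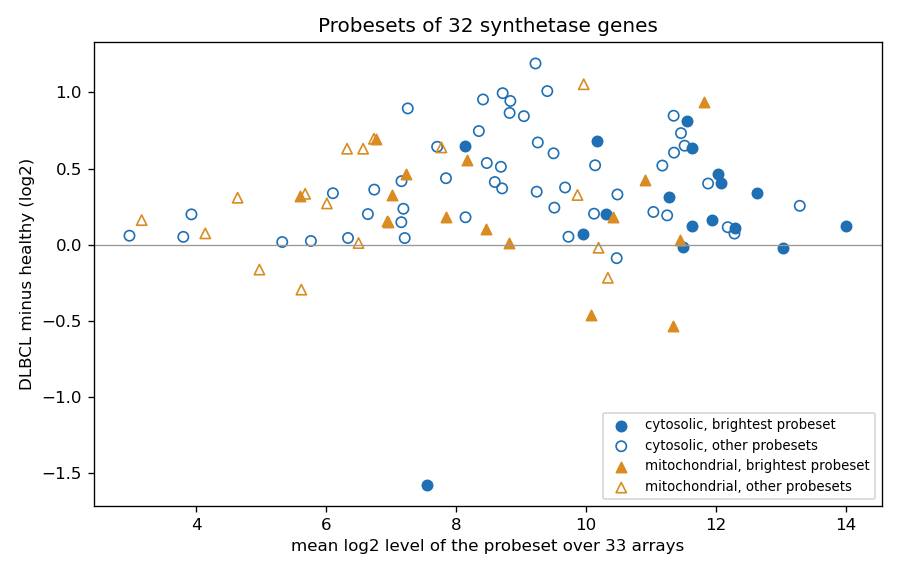
Log2 difference of DLBCL minus healthy nodes against mean log2 level for the 99 synthetase probesets; filled points are the brightest probeset of each gene and open points the others. Of the 99 points 54 were called higher, and in 21 of 23 genes with several probesets the largest rise lies in an open point. Open points outnumber filled ones in these genes, and the same count over all genes was not made.

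Naïve and relapsed DLBCL were each set against the same 7 healthy dogs in a fit with 3 groups. In naïve DLBCL 8 cytosolic genes were higher and 1 lower, and 7 mitochondrial genes were higher and 2 lower, beside 19.9% higher and 15.1% lower over all genes. In relapsed DLBCL the counts were 7 and 1 of the cytosolic and 5 and 2 of the mitochondrial genes, beside 10.8% higher and 8.96% lower. The values differed little: CARS2 was 0.96 above healthy nodes in naïve and 0.92 in relapsed DLBCL, IARS1 0.84 and 0.78, VARS1 0.62 and 0.67, and TARS3 differed by -1.47 and -1.77. MARS1, EARS2 and WARS2 were called in naïve DLBCL only, and their differences in relapsed DLBCL were 0.23, 0.26 and 0.48. Among the relapsed calls, LARS1 was lost without healthy dog 1, 2 or 6 (0.45 to 0.50), NARS1 without dog 2, 3, 4 or 6 (0.23 to 0.26), NARS2 without dog 2 or 4 (0.42 and 0.38), YARS1 without dog 4 (0.53) and YARS2 without dog 5 or 7 (0.61 and 0.59). The limma adjusted p in these cases was between 0.051 and 0.071.

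The difference between relapsed and naïve DLBCL was tested itself. No synthetase was called, 0% of all genes were called, and none of the 32 had an unadjusted p under 0.05 in limma, against 833 of the 15115 genes. The differences ran from -0.30 for TARS3 to 0.11 for RARS2, and the lowest adjusted p was 0.901. Apart from TARS3, whose 95% interval was -1.16 to 0.56, the intervals of the other 31 genes lay between -0.61 and 0.37. Differences of a size within these intervals remain possible. In the dog sampled at both stages CARS2 was 12.55 in the naïve and 12.32 in the relapsed sample, and IARS1 was 12.01 and 11.96.

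RNA integrity moved with the comparison of DLBCL and healthy nodes. The median RIN was 9.75 in DLBCL and 7.1 in healthy dogs, and the healthy dogs other than healthy dog 1 had 5.8 to 7.7. Healthy dog 1 had 9.15. Its cytosolic synthetase mean, 11.04, was the lowest of the healthy dogs, the others being at 11.13 to 11.20, and its mitochondrial mean, 8.69, lay within their 8.62 to 8.79. Of the 15 synthetases called higher, each read from its brightest probeset, all but NARS2 had a DLBCL mean above healthy dog 1. A second NARS2 probeset had all 22 DLBCL dogs above every healthy dog. The 3 genes called lower had a DLBCL mean under healthy dog 1. TARS2 was near it, at 11.23 against 11.29, with 12 DLBCL dogs below healthy dog 1 and 10 above. This is a description and no test, since these genes were chosen with that dog among the healthy ones and it is a single dog. This dog stood apart in other ways as well: it had the highest macrophage gene mean of the healthy dogs, 12.49, and the lowest mitosis gene mean, 8.00. RIN and group cannot be told apart beyond this one dog, and the part of tissue make-up was not tested.

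**Figure D4:**
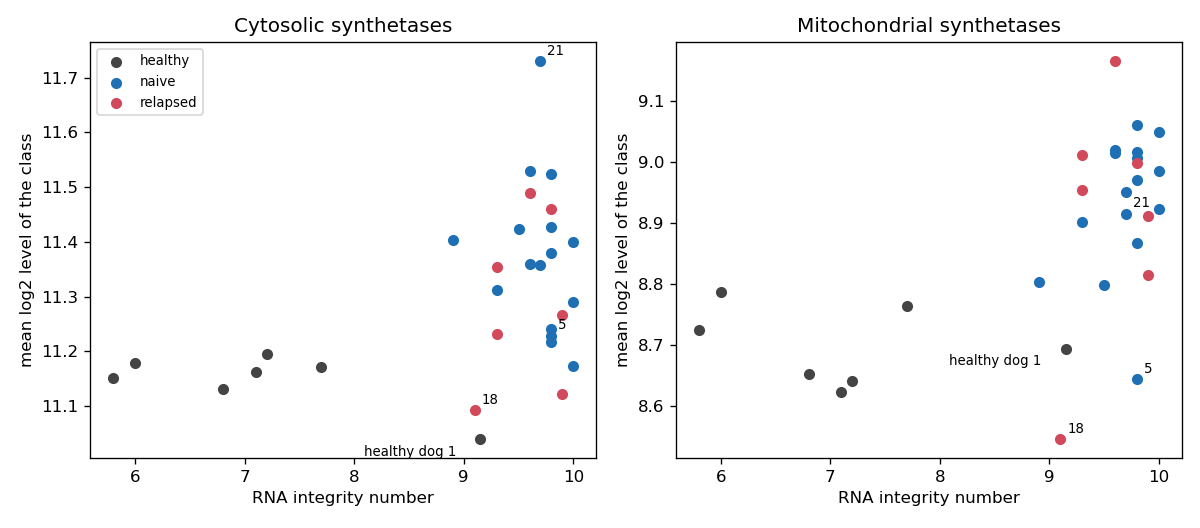
Mean log2 level of the 17 cytosolic and of the 15 mitochondrial synthetases against RIN. Points are each healthy dog and each naïve and relapsed DLBCL sample, with samples 5, 18 and 21 and healthy dog 1 named. Healthy dog 1, at a RIN of 9.15, is the lowest healthy dog in the cytosolic panel, at 11.04, and lies within the healthy range in the mitochondrial panel, at 8.69.

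A mean over the genes of a class gives the position of each dog. The cytosolic mean was 11.09, 11.36 and 11.73 in DLBCL and 11.04, 11.16 and 11.20 in healthy dogs, with 19 of 22 DLBCL dogs above all healthy ones. The mitochondrial mean was 8.55, 8.96 and 9.16 in DLBCL and 8.62, 8.69 and 8.79 in healthy dogs, with 20 of 22 above. Sample 18 was lowest among the tumours in both means, and sample 5 was next in the mitochondrial mean, at 8.64.

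The single genes followed this order in part. Sample 18 was the lowest DLBCL dog in 8 of 17 cytosolic and 5 of 15 mitochondrial genes, and sample 5 in 4 and 5. Sample 21 had the highest cytosolic mean and was the highest dog in AARS1, CARS1, SARS1 and WARS1 of the cytosolic genes, and it also had the highest mean of amino acid response genes, 9.12, and of plasma cell genes, 10.75. Sample 24 had the highest mitochondrial mean and was highest in CARS2, IARS2, RARS2 and SARS2. Without samples 5 and 18 the counts of genes called higher were 9 cytosolic and 8 mitochondrial, and the genes called lower were 1 and 2.

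Across the 22 DLBCL dogs the members varied together only loosely. The median Pearson correlation was 0.35 over 136 pairs of cytosolic genes, 0.21 over 105 pairs of mitochondrial genes and 0.20 over 255 pairs of one of each. Without samples 5 and 18 these medians were 0.21, 0.09 and 0.07. The mitochondrial mean ran with the mean of 30 other genes of mitochondrial translation and tRNA processing (r = 0.90, rho = 0.85, and r = 0.74 without the 2 dogs farthest from the median). The cytosolic mean gave r = 0.59 and rho = 0.62 with the same genes, and r = 0.51 without 2 dogs. The mitochondrial mean also ran with the mean of 8 partners of the cytosolic enzymes (r = 0.86, rho = 0.74, and r = 0.65 without 2 dogs), with which the cytosolic mean gave r = 0.58 and rho = 0.60, so the relation was not particular to mitochondrial genes.

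Against the amino acid response genes the cytosolic mean gave r = 0.48 and rho = 0.35, but r = 0.03 without the 2 dogs farthest from the median. Without samples 5 and 18 instead it gave r = 0.63 and rho = 0.56, and r = 0.35 with 2 more dogs left out, so the value depended on which dogs were included. Against the stromal genes it gave r = -0.61, rho = -0.50 and r = -0.45. All of these values share arrays and their normalization, and they are descriptions over dogs.

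**Figure D5:**
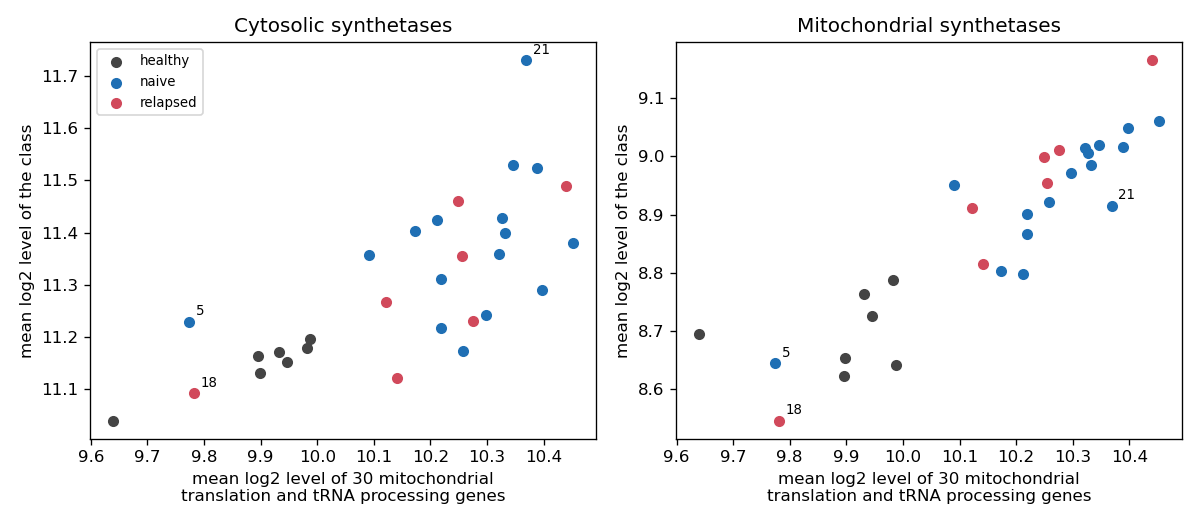
Mean log2 level of the cytosolic and of the mitochondrial synthetases against the mean of 30 genes of mitochondrial translation and tRNA processing. Points are each healthy dog and each naïve and relapsed DLBCL sample, with samples 5, 18 and 21 named. Over the 22 DLBCL dogs alone, arrays of one dog averaged, r was 0.90 for the mitochondrial mean and 0.59 for the cytosolic mean.

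WARS1 was set against the mean of 13 interferon-induced genes over the 22 DLBCL dogs. Pearson's r was 0.23 (two-sided permutation p = 0.294) and Spearman's rho 0.13 (permutation p = 0.557), and r was 0.08 without the 2 dogs farthest from the median. Of these genes 3 were higher (23.1%) and 4 lower in DLBCL, beside 19.9% and 14.9% of all genes. Their mean thus joins genes that moved in opposite directions. ISG15 (1.83) and IFI44 (1.50), antiviral genes, were higher, and IDO1 (-3.45), which breaks down tryptophan, and GBP5 (-1.39), a guanylate-binding protein, were lower.

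The partners of the cytosolic enzymes were mostly higher, 6 of 8 (75%) with 1 lower and a median of 0.37. Over all genes 19.9% were higher and 14.9% lower. None of the partners was called with RIN as a covariate. AIMP1 (0.36), AIMP2 (0.36) and EEF1E1 (0.43), the scaffold proteins of the multisynthetase complex, were all higher, as was XPOT (0.45), which exports tRNA from the nucleus. FARSA, the alpha subunit of the cytosolic phenylalanine enzyme, differed by 0.38 (limma adjusted p = 0.011) and FARSB, the beta subunit, by 0.24 (limma adjusted p = 0.064). The genes named D-aminoacyl-tRNA deacylase parted: DTD2 was higher by 1.45 (limma adjusted p = 5.1e-06, 21 DLBCL dogs above all healthy) and DTD1 was lower (-0.31, limma adjusted p = 0.0053).

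Of the later steps of cytosolic translation, 7 of 11 elongation and release genes (63.6%) were higher and none was lower (median 0.20). Over all genes 19.9% were higher and 14.9% lower. EIF5A2 alone of this list was called with RIN as a covariate. The largest rises were in EIF5A2 (1.05) and EIF5A (0.39), which help ribosomes past peptide bonds that form slowly, and in ETF1 (0.58) and GSPT1 (0.39), which release the finished chain. In mitochondria, 15 of 30 genes of translation and tRNA processing were higher and none was lower (median 0.36), with MTRF1, a release factor (0.79), LRPPRC, which stabilises mitochondrial mRNA (0.72), MRRF, which recycles ribosomes (0.70), and TUFM, the elongation factor (0.68), at the top. GATB (0.58) and GATC (0.44), subunits of the enzyme that turns the glutamate placed by EARS2 into glutamine, were also higher, and its remaining subunit QRSL1 differed by 0.24 (limma adjusted p = 0.38). With RIN as a covariate TFAM, a mitochondrial transcription factor, was the only gene of the 30 called.

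The regulators gave 8 of 14 higher (57.1%) and 1 lower (median 0.33), beside 19.9% and 14.9% of all genes. None of the regulators was called with RIN as a covariate. MYC was higher by 1.04 (limma adjusted p = 0.0041, 18 DLBCL dogs above all healthy) and MYCN was lower, at -1.46. EIF2AK2, a kinase that halts translation on sensing double-stranded RNA, was higher by 1.74, and GABPA, a transcription factor of nuclear genes for mitochondrial proteins, by 0.53. ATF4, the transcription factor of the amino acid response, differed by -0.08 (limma adjusted p = 0.36).

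Of 28 amino acid response genes 6 were higher (21.4%) and 3 were lower (median 0.14), near the 19.9% and 14.9% of all genes. MTHFD2, a mitochondrial folate enzyme, was higher by 0.91 with all 22 DLBCL dogs above all healthy ones, and CBS, which makes cystathionine from homocysteine, was higher by 0.96. NUPR1 (-1.0), a stress-induced chromatin protein, and PPP1R15A (-0.95), which brings a phosphatase to the initiation factor eIF2, were lower. With RIN as a covariate MTHFD2 alone of this list was called.

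Cell type genes also differed between DLBCL and healthy nodes, some lists at shares near the 19.9% higher and 14.9% lower of all genes. T-cell genes were lower in 8 of 10 (median -1.95), led by TRAT1 (-3.96), CD28 (-3.81), CD5 (-3.58) and LCK (-3.00), and mitosis genes were higher in 9 of 9 (median 1.55), led by BUB1B (2.04), CENPF (2.00), TTK (1.96) and KIF11 (1.63). B-cell genes were higher in 2 of 7 (28.6%), BLNK (1.02) and CD79A (0.72), with none lower. The mean of the B-cell genes was 8.57 to 11.78 in DLBCL and 10.23 to 11.07 in healthy dogs. Of the plasma cell genes SDC1 was higher (0.32) and JCHAIN (-1.37), PRDM1 (-1.05) and XBP1 (-0.63) were lower, of 5.

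Macrophage genes were lower in 3 of 9, MARCO (-2.11), MRC1 (-1.18) and CSF1R (-0.72), beside 14.9% lower over all genes. The mean of the macrophage genes was 9.02 to 11.66 in DLBCL and 10.32 to 12.49 in healthy dogs. Of the 7 stromal genes LUM (1.71) was higher (14.3%) and PDGFRB (-0.77) lower, near the 19.9% and 14.9% of all genes. With RIN as a covariate 3 mitosis genes (BUB1B, CENPF and TOP2A) and 1 T-cell gene (CD5) were called, and no gene of the B-cell, plasma cell, macrophage and stromal lists. No dog had a mean of any of these cell type lists under 7.75, where the control probesets were at most 4.56. This is a rough guide, since levels of different probesets cannot be compared and a list mean hides its lower genes. CD8A and PAX5, for example, had DLBCL means of 5.79 and 6.06. The part of these cell types in the synthetase differences was not tested.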

How the data were processed

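RNA from 33 lymph node samples was amplified from 50 ng (NuGEN Ovation), labelled and hybridised to Affymetrix Canine Genome 2.0 arrays. The authors summarised the arrays by RMA in Affymetrix Expression Console and deposited log2 values for 43035 probesets; they also used Partek. RMA brings all arrays to one distribution, so a shift common to all genes is not visible. RNA was extracted in 2 batches, and the sources used here do not say which sample was in which, so no batch was tested. Precision is limited by the number of dogs (22 with DLBCL, 7 healthy).

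Groups came from the labels. Of the probesets, 29264 had 1 gene symbol, 439 several, and 13332 were unnamed here. All 32 symbols were found in the RefSeq gene table. Tests used limma 3.58.1 in R 4.3.3 on all probesets, with Benjamini-Hochberg adjustment and a threshold of 0.05, and summaries used Python 3.11.15. Naïve and relapsed groups kept samples 11 and 12 of one dog apart. A pair difference was fitted as an added row. Every gene that met the rule is named, and of each other list up to 4 genes with the largest difference past the threshold, plus MYC, ATF4, FARSA and FARSB; GATB, GATC and QRSL1 were added for their role, and TFAM and TOP2A for their call with RIN, after their values were seen. The members and lists were chosen with earlier results of these data known. On simulated data with changes of 0.5, 1 and 2 on the log2 scale in 50 probesets each, the test of DLBCL against healthy nodes recovered 64%, 76% and 94%, with 8 false calls, that of relapsed DLBCL against healthy nodes 38%, 78% and 96%, and that of relapsed against naïve DLBCL 54%, 88% and 96%. Alternatives covered RIN, the handling of arrays of one dog, filtering, normalization, probeset choice, a replicate block, left-out dogs and the methods' ANOVA. WARS1 was set against the interferon mean in place of a planned relation that is not reported here, a choice made after seeing the data. The pair differences under each alternative were also added after seeing the data.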

Additional observations from a re-analysis of the deposited data

Results flagged for a closer look

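Single dogs stood apart from the rest of their group in 7 of the 64 gene and group combinations examined (32 genes in healthy dogs and in relapsed DLBCL), by a gap test that sets apart about 1 in 20 groups by chance. Healthy dog 1 was low in MARS1, at 10.84 where the other 6 healthy dogs had 11.04 to 11.18, and in SARS1, at 11.57 where they had 11.83 to 11.96. Among the 7 relapsed samples, sample 18 was low in IARS1, at 11.03 against 11.66 to 12.05 in the others, in NARS1, at 12.11 against 12.63 to 12.86, and in TARS2, at 10.13 against 10.99 to 11.64. Sample 24 was high in SARS2, at 8.89 against 8.45 to 8.59, and sample 4 was high in TARS1, at 12.90 against 12.15 to 12.47. Sample 18 is also the tumour of highest stromal and lowest mitosis gene mean, and the part of these in its values was not tested.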

How the results depend on the processing

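With RIN as a covariate, 0 cytosolic and 0 mitochondrial genes were called higher or lower in DLBCL, naïve DLBCL and relapsed DLBCL against healthy nodes, 0 of the 12 pairs were called, and the cytosolic median in naïve DLBCL was 0.38; RIN and group are nearly aligned in this design. With the mean of a gene's probesets, the cytosolic genes called higher were 13 in DLBCL and 14 in naïve DLBCL, the cytosolic medians were 0.37 in DLBCL, 0.41 in naïve and 0.31 in relapsed DLBCL, the mitochondrial median in naïve DLBCL was 0.33, and QARS1 turned to 0.24 in DLBCL and 0.27 in naïve DLBCL. The methods' ANOVA was fitted on all 33 arrays as separate samples, so arrays of one dog were counted as if independent. Under it 11 cytosolic and 7 mitochondrial genes were higher in DLBCL, and the share of all genes called is not given here. With the methods' linear fold over 2 added, 0 cytosolic genes were higher and 0 mitochondrial genes higher or lower in each of the 3 comparisons with healthy nodes. Sample numbers did not pair the groups: correlations between samples of the same number were -0.14 to 0.13. With sample number as a replicate block, 3 mitochondrial genes were higher and 1 lower in naïve DLBCL; in relapsed DLBCL 3 cytosolic and 0 mitochondrial genes were higher and 1 mitochondrial gene lower, the cytosolic median was 0.32 and NARS2 turned to -0.13. NARS2 in DLBCL was also not called with 33 arrays as separate samples (0.25), and RARS2 was not called under the block. Leaving out each healthy dog gave 8 cytosolic and 6 to 7 mitochondrial genes higher in DLBCL, 5 to 7 and 4 to 5 in relapsed DLBCL, and 5 to 6 pairs called. The dog as a random block, cyclic loess, quantile normalization and the percentile filter lost no call in DLBCL. Relapsed against naïve DLBCL gave 0 called synthetases under every alternative run. Only KARS1 could be left out as an enzyme of both compartments. The causes of these changes were not tested.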
